A study of Mus musculus with 39 samples.

Results

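The genes described here are the nuclear receptors that bind retinoids and the receptors and corepressors that act with them. They were the rows of the deposited gene count table whose symbol was Rara, Rarg, Rxra, Rxrb, Nr2f1, Nr2f2, Nrip1 or Ncor1. Of 9 genes listed, 8 were found among the 39676 genes of the table, and Rarb was not analysed here except for its promoter. All 8 had enough reads to be tested in every comparison. By GENCODE M21 on GRCm38 the protein-coding genes lie at chr11:98927818-98974942 (Rara), chr15:102234938-102257517 (Rarg), chr2:27676440-27762957 (Rxra) and chr17:34031812-34038399 (Rxrb). The others lie at chr13:78188973-78199757 (Nr2f1), chr7:70351944-70366735 (Nr2f2), chr16:76287400-76373827 (Nrip1) and chr11:62316426-62458541 (Ncor1).

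Retinoic acid receptors (RARs) sit on DNA as heterodimers with retinoid X receptors (RXRs), at paired copies of a short core sequence. Without ligand the dimer holds a corepressor complex built on NCoR proteins, which recruits histone deacetylases, and all-trans retinoic acid exchanges that complex for coactivators. Nrip1 encodes RIP140, a corepressor that binds receptors which carry their ligand, and Nr2f1 and Nr2f2 encode COUP-TFI and COUP-TFII, orphan receptors that bind related repeats and can compete with RAR and RXR for them. COUP-TFII is known from veins, lymphatic vessels and mesenchyme.

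The tumours were subcutaneous AB1-HA tumours in BALB/c mice, AB1-HA being a mouse mesothelioma line that carries an influenza haemagglutinin. Mice were given PBS (10 tumours), tretinoin, which is all-trans retinoic acid (9 tumours), immune checkpoint therapy (ICT, 10 tumours) or both (tretinoin+ICT, 10 tumours). By the labels, tretinoin was given at 5 mg/kg daily for 5 days from day 4, and ICT was 100 µg each of antibodies to CTLA-4 and PD-L1 from day 7. Tumours were removed on day 9, and the tretinoin+ICT tumours were labelled by the later outcome of the same mouse, where a second tumour was left in place, as 6 responders and 4 non-responders. By the study's methods the control for tretinoin held DMSO in PBS and the control for ICT was PBS, and the labels name both PBS. The study used mice of both sexes, and sex was not given per tumour in the sources used here.

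Total counts ranged from 14033046 to 37951183 per tumour. Each of the 8 series of tumour names, taken from the first digit of the name, held a single treatment, so series and treatment cannot be told apart. Each treatment held more than a single series, and pairs of series are given below. The main tests between treatments took all tumours as independent of series. Of the mesothelial markers, Pdpn was present at 57.8 to 95.3 CPM (the count scaled to the size of its library), whereas Wt1 lay between 0.253 and 5.46 CPM, Upk3b was at 0 in 36 of 39 tumours and Lrrn4 at 0 in 15. The leukocyte markers summed to 688 to 1220 CPM in PBS tumours, 722 to 1496 in tretinoin tumours, 727 to 2151 in ICT tumours and 968 to 2031 in tretinoin+ICT tumours. PBS tumour 14, tretinoin tumour 33 and ICT tumour 63 were the highest of their groups.

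The first question was what tretinoin did to its own receptors and their partners in the tumour. With tretinoin 3 of the 8 genes rose over PBS, namely Nrip1, Rarg and Nr2f2, and 0 fell (edgeR, adjusted p below 0.05). Over all 14340 genes tested, 11.5% were higher and 8.95% lower. The median log2 fold change of the 8 genes was 0.10, against 0.01 over all genes. A fold change of at least 1 on the log2 scale was reached by Nrip1 alone of the 8, against 1.49% of all genes.

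Nrip1, the RIP140 corepressor, had the largest change of the 8 genes. It was at 39.3 CPM in the lowest PBS tumour, 48.2 at the median and 57.2 in the highest, and at 135 (lowest), 143 (median) and 179 (highest) with tretinoin. Every tretinoin tumour was above every PBS tumour. Its log2 fold change was 1.64 (SE 0.0684, adjusted p = 4.64e-13), a 3.12-fold rise, which placed it at rank 3 by p among all genes tested. As these are whole tumours, more RNA per cell and more cells that express the gene cannot be told apart, here or below. The share of all genes whose groups did not overlap was not counted, for this or any other comparison.

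Rarg encodes RARγ, one of the receptors that tretinoin activates. It lay at 85.3 CPM (lowest), 94.3 (median) and 116 (highest) with PBS and at 145, 188 and 228 with tretinoin, again with no overlap. The rise was 0.94 on the log2 scale (SE 0.0751, adjusted p = 2.30e-08), or 1.91-fold. Rara, which encodes RARα, did not pass the test, with 33.01, 37.4 and 43.6 CPM under PBS, 28.3, 37.1 and 40.1 CPM under tretinoin and a log2 fold change of -0.10 (SE 0.0662, adjusted p = 0.270). The groups overlapped for Rara over most of their range.

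Nr2f2, which encodes COUP-TFII, rose by 0.75 on the log2 scale (SE 0.0684, adjusted p = 1.67e-07), or 1.68-fold. Its levels were 83.6 CPM (lowest), 99.3 (median) and 124 (highest) with PBS and 143, 165 and 194 with tretinoin, without overlap. Exons of Nr2f2 overlap those of B130024G19Rik on the other strand, whose log2 fold change was 0.68 (SE 0.0686, adjusted p = 6.85e-07); the strand setting of the counting is not given in the sources used here, so reads of the shared stretch cannot be told apart. The summed endothelial markers, which mark cells where COUP-TFII is known, lay at 257 to 310 CPM with PBS and 291 to 404 with tretinoin, with 3 of 7 higher and 0 lower. Of the lymphatic markers 1 of 3 was higher, Flt4 (0.46, SE 0.130, adjusted p = 0.0167), while their sum lay at 16.5 to 36.9 CPM with PBS and 15.6 to 34.5 with tretinoin. Macrophage markers were higher too (3 of 6), as were 1 of 4 leukocyte and 1 of 2 mesothelial markers, and 2 of 5 proliferation markers were lower. Of the fibroblast markers 0 of 4 were higher and 0 lower, and of the mural markers 0 of 4 were higher and 1 lower. The defining lymphatic factor Prox1 was between 0.0506 and 1.09 CPM in all tumours. The part of these cells in the change of Nr2f2 was not tested.

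Its relative Nr2f1 (COUP-TFI) did not pass the test under tretinoin alone, at 36.5 CPM (lowest), 52.9 (median) and 68.5 (highest) with PBS and 41.3, 58.6 and 82.5 with tretinoin. Its log2 fold change was 0.16 (SE 0.130, adjusted p = 0.421). Neither RXR gene passed either. Rxra, the partner of RARs and of many other receptors, had medians of 76.3 CPM (PBS) and 76.2 CPM (tretinoin) and a log2 fold change of 0.04 (SE 0.0579, adjusted p = 0.624). Rxrb had medians of 66.7 and 67.9 CPM and a log2 fold change of 0.03 (SE 0.0430, adjusted p = 0.606). Ncor1, the corepressor of unliganded receptors, had medians of 239.6 and 229 CPM, and its log2 fold change of -0.0038 had an SE of 0.0854 (adjusted p = 0.980).

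**Figure D1:**
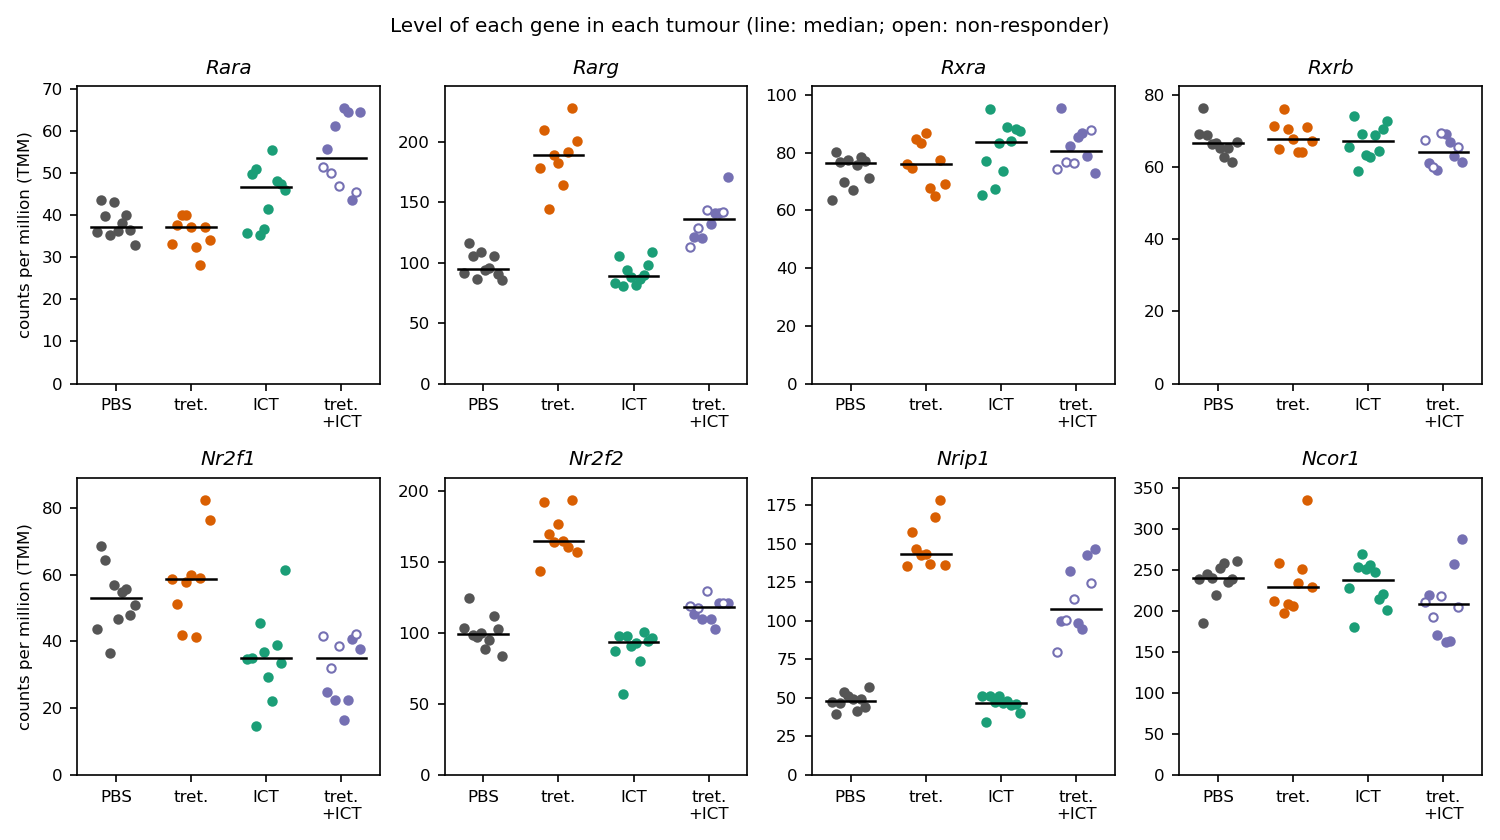
Level of each gene in each tumour, in CPM with TMM scaling (y axis, from 0), by treatment (x axis). Each point is 1 tumour, open points are non-responders to tretinoin+ICT and the line is the group's median. Nrip1, Rarg and Nr2f2 stood above all PBS tumours in every tretinoin tumour, and Nr2f1 reached 14.8 CPM in the lowest ICT tumour. The share of all genes without overlap between groups was not counted.

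The promoters of the genes that rose with tretinoin are shown because retinoid receptors act through paired core sites near genes. Each is the 250 bases before a RefSeq start site on GRCm38.p6, 5′ to 3′ on the strand of the gene, all 3 genes lying on the minus strand. Capitals mark single receptor core letters, GGTCA or GTTCA, on either strand. The windows are chr16:76373828-76374077 for Nrip1, chr15:102257523-102257772 for Rarg and chr7:70366747-70366996 for Nr2f2.
Nrip1: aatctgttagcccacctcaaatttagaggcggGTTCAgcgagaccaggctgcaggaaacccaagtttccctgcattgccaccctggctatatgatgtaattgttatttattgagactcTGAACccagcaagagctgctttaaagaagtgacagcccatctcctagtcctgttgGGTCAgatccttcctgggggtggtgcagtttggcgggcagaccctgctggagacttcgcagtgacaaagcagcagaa
Rarg: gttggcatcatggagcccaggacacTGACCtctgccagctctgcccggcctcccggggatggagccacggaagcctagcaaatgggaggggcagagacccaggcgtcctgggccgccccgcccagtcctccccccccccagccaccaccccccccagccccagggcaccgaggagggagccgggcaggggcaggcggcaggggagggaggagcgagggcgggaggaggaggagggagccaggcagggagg
Nr2f2: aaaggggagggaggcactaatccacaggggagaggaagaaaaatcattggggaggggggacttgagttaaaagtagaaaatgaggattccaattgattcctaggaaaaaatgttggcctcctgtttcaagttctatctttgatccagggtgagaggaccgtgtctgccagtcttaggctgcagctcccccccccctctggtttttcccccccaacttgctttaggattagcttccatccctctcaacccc

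The Nrip1 window shown held 3 single core sites, the Rarg window 1 and the Nr2f2 window 0. Nrip1 and Rarg each had another window at a start further into the gene (chr16:76373050-76373299 and chr15:102246501-102246750), which held 0, and 54.9% of all 32851 promoter windows held at least 1. Paired sites were searched as GGTCA or GTTCA repeated in the same direction with 6, 3 or 2 bases between them, on both strands, in windows that ran on to 50 bases after the start. None of the 17 windows of the 8 genes held such a pair, against 1.05% of all promoters, and this says only that these letters are not in these windows. The same search found such a pair, with 6 bases between, in a window of the listed gene Rarb, from -52 to -37 relative to the start.

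Tretinoin was also given on top of ICT, and tretinoin+ICT was compared with ICT for the same question in treated tumours. The genes higher there were 3 of the 8, again Nrip1, Rarg and Nr2f2, and 0 were lower, against 1.57% of 14202 genes higher and 0.422% lower. With a log2 fold change of at least 1 the count was 1, against 0.366% of all genes. The 2 comparisons of tretinoin share no tumours. Nrip1 was at 34.7 CPM (lowest), 47.0 (median) and 51.2 (highest) with ICT and at 79.7, 107.5 and 147 with tretinoin+ICT, without overlap. It rose by 1.30 on the log2 scale (SE 0.102, adjusted p = 1.06e-07), or 2.46-fold.

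Rarg lay at 80.8, 88.8 and 109 CPM with ICT and at 113, 136 and 171 CPM with tretinoin+ICT, so the groups did not overlap but came close. Its log2 fold change was 0.56 (SE 0.0718, adjusted p = 8.26e-05). Nr2f2 lay at 57.1, 93.4 and 101 CPM with ICT and at 103, 118 and 129 CPM with tretinoin+ICT. Its log2 fold change was 0.38 (SE 0.0768, adjusted p = 0.00759), with no overlap, and the lowest value, 57.1 CPM, was ICT tumour 63. Within pairs of name series the log2 fold change of Nr2f2 lay between 0.32 and 0.45 and passed the test in 0 of 4 pairs, whereas that of Nrip1 lay between 1.17 and 1.43 and passed in 4 of 4. That of Rarg lay between 0.43 and 0.69 and passed in 2 of 4. Rara had a log2 fold change of 0.30 (SE 0.0968, adjusted p = 0.126) and passed the test in the fit of all 39 tumours (adjusted p = 0.0315).

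The other 4 genes did not pass the test. Their log2 fold changes over ICT were 0.01 (Rxra), -0.06 (Rxrb), -0.14 (Nr2f1) and -0.15 (Ncor1), with adjusted p between 0.400 and 0.941.

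**Figure D2:**
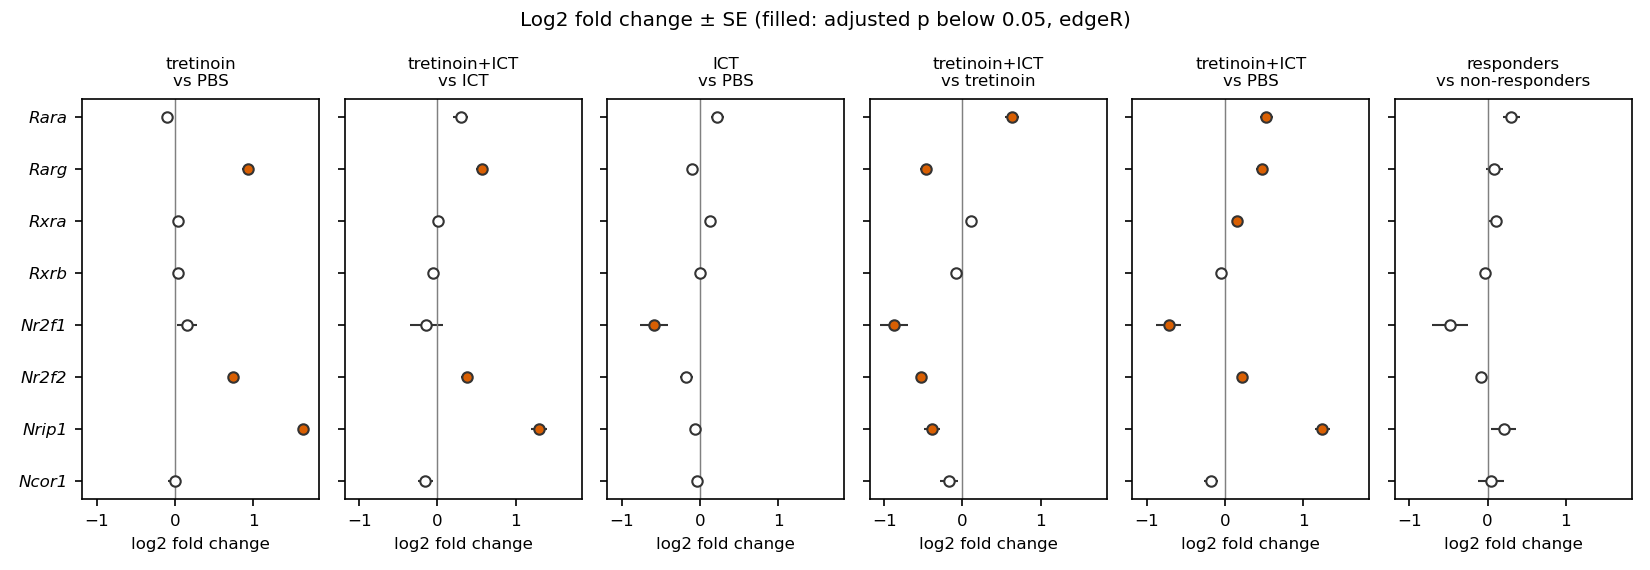
Log2 fold change (x axis) of each gene (y axis) in 6 comparisons, with its standard error as a bar. Filled points passed an adjusted p of 0.05. Nrip1, Rarg and Nr2f2 lay right of 0 wherever tretinoin was added and left of 0 between tretinoin+ICT and tretinoin, where Rara lay right of 0 at 0.63.

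ICT without tretinoin was compared with the same PBS tumours to see what checkpoint antibodies did to the same genes. Nr2f1 fell, and it was the only one of the 8 to pass the test, with 0 higher. Over 14155 genes 14.1% were higher and 7.15% lower. Nr2f1 was at 14.8 CPM (lowest), 34.9 (median) and 61.3 (highest) with ICT, against the 36.5, 52.9 and 68.5 CPM given for PBS, so the groups overlapped. Its log2 fold change was -0.58 (SE 0.180, adjusted p = 0.0269), or 0.667-fold. The call did not hold without PBS tumour 12 (log2 fold change -0.53, adjusted p = 0.0505), without ICT tumour 82 (-0.53, adjusted p = 0.0521) or with no filter on low counts (-0.59, adjusted p = 0.0598), and it passed in 0 of 4 pairs of name series, where the log2 fold change lay between -0.70 and -0.47.

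Nr2f1 shares exons with A830082K12Rik, a transcript on the other strand, which had a log2 fold change of -0.55 (SE 0.153, adjusted p = 0.0162) in the same comparison; the reads of the shared stretch cannot be told apart without strand. The leukocyte, macrophage and neutrophil markers were higher with ICT (3 of 4, 6 of 6 and 4 of 4) and 3 of 4 mural cell markers were lower, their sum being 342 to 433 CPM with PBS and 216 to 342 with ICT. Of the endothelial markers 2 of 7 and of the lymphatic markers 1 of 3 were lower, and of the mesothelial markers 2 of 2 were higher. ICT tumour 63, the lowest in Nr2f1, Nr2f2 and Rarg among the ICT tumours, had the highest leukocyte sum of all tumours, 2151 CPM. The part of these cells in the fall of Nr2f1 was not tested.

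Rara under ICT lay at 35.3 CPM (lowest), 46.7 (median) and 55.6 (highest), and its log2 fold change over PBS of 0.22 (SE 0.0814, adjusted p = 0.0546) was just short of the threshold. DESeq2 gave it an adjusted p of 0.0402. The other 6 genes had log2 fold changes between -0.18 (Nr2f2) and 0.13 (Rxra), and adjusted p of at least 0.137. Nrip1 had a log2 fold change of -0.06 (SE 0.0720, adjusted p = 0.582) and a median of 47.0 CPM, against 48.2 CPM with PBS.

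ICT added to tretinoin was read by comparing tretinoin+ICT with tretinoin. Here 5 of the 8 genes passed the test. Rara was higher, against 12.3% of all 14393 genes, and Rarg, Nrip1, Nr2f1 and Nr2f2 were lower, against 9.01%. None reached a log2 fold change of 1 in size. Rara lay at 43.6, 53.7 and 65.6 CPM with tretinoin+ICT, above all tretinoin tumours, and rose by 0.63 on the log2 scale (SE 0.0892, adjusted p = 1.91e-04), or 1.55-fold.

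Nr2f1 fell by 0.87 (SE 0.176, adjusted p = 0.00332), and its tretinoin+ICT tumours lay at 16.5, 34.9 and 42.3 CPM. Only the top of that range overlapped the tretinoin tumours, of which the lowest was at 41.3 CPM. Nr2f2 fell by 0.53 (SE 0.0575, adjusted p = 2.07e-05), at rank 6 by p among all genes, and the groups did not overlap. Rarg fell by 0.47 (SE 0.0817, adjusted p = 0.00114) and Nrip1 by 0.39 (SE 0.101, adjusted p = 0.0127), both with overlap between the groups. Within pairs of name series Nr2f2 passed in 4 of 4, Rara in 3, Rarg in 2, and Nrip1 and Nr2f1 in 1 each.

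Cell markers moved with this comparison too, with leukocyte (4 of 4), neutrophil (4 of 4), macrophage (3 of 6) and mesothelial markers (2 of 2) higher. Lower were mural (3 of 4), endothelial (2 of 7), lymphatic (1 of 3) and fibroblast markers (1 of 4). The leukocyte sum lay at 722 to 1496 CPM with tretinoin and at 968 to 2031 with tretinoin+ICT. The part of these cells in the 5 calls was not tested. B130024G19Rik, on the other strand of Nr2f2, had a log2 fold change of -0.63, and A830082K12Rik, on the other strand of Nr2f1, one of -0.80, both past the test. Rxra, Rxrb and Ncor1 did not pass, with log2 fold changes of 0.11, -0.09 and -0.18 and adjusted p between 0.152 and 0.262.

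The combination against PBS shares its tumours with the comparisons above and is given beside them. Higher in tretinoin+ICT were 5 of the 8 genes and lower was 1, in a comparison where 25.7% of 14265 genes were higher and 24.5% lower. With a log2 fold change of at least 1 the count was 1 (Nrip1), against 5.45% of genes. Leukocyte (4 of 4), macrophage (6 of 6) and neutrophil markers (4 of 4) were higher and 2 of 4 mural markers lower, and 2 of 7 endothelial markers were higher and 2 lower. Mesothelial (2 of 2), keratinocyte (2 of 3) and B cell markers (1 of 4) were higher too, and 1 of 4 fibroblast markers was lower. The part of these cells in the calls was not tested. Nrip1 rose by 1.25 (SE 0.0987, adjusted p = 2.48e-08), Rara by 0.53 (SE 0.0805, adjusted p = 2.24e-05) and Rarg by 0.47 (SE 0.0696, adjusted p = 1.66e-05). Nr2f2 rose by 0.22 (SE 0.0579, adjusted p = 0.00397), whereas B130024G19Rik on its other strand had a log2 fold change of 0.05 (adjusted p = 0.556). Rxra, at 72.8, 80.5 and 95.5 CPM with tretinoin+ICT and 63.8, 76.3 and 80.2 with PBS, rose by 0.15 (SE 0.0530, adjusted p = 0.0230). It did not pass in the fit of all 39 tumours (0.15, adjusted p = 0.0527).

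Nr2f1 fell by 0.72 (SE 0.158, adjusted p = 8.70e-04) over PBS, and Ncor1, at 162 to 288 CPM with the combination, had a log2 fold change of -0.18 (SE 0.0908, adjusted p = 0.0986). Rxrb had the smallest spread of the 8 genes over the 39 tumours, with a coefficient of variation of 6.501% and a range of 59.0 to 76.5 CPM, and passed no comparison. The widest over all tumours, which takes in the differences between treatments, was that of Nrip1, at 52.6%. Within groups Nrip1 lay between 10.2% (tretinoin) and 19.7% (tretinoin+ICT). The widest in each group was that of Nr2f1, from 18.2% (PBS) to 35.8% (ICT). Ncor1, like Rxrb, passed no comparison, and its coefficient of variation over all tumours was 15.2%. Its exons overlap those of Ttc19 and Pigl on the other strand, whose median levels were 29.4 and 9.80 CPM.

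Whether the effect of tretinoin differed with ICT was asked by the interaction of both treatments, fitted on all 39 tumours. The interaction passed the test for 0 of the 8 genes, against 0.307% (46 of 14977 genes) in either direction; 1415 genes had an unadjusted p under 0.05 and DESeq2 called 84 genes, 0 of the 8 among them. The log2 differences were -0.37 for Rarg (SE 0.105, adjusted p = 0.143), -0.37 for Nr2f2 (SE 0.103, adjusted p = 0.143), -0.34 for Nrip1 (SE 0.125, adjusted p = 0.325) and 0.40 for Rara (SE 0.121, adjusted p = 0.198). Each of these 4 had an unadjusted p under 0.05, the highest being 0.00908 for Nrip1. The smaller rise of Rarg, Nr2f2 and Nrip1 with ICT present was therefore not told apart from an equal rise at this threshold.

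Responders and non-responders to tretinoin+ICT were compared next. The test passed for 0 of the 8 genes and for 0% of 14604 genes (edgeR), with 3302 genes at an unadjusted p under 0.05. DESeq2 called 1401 genes, and 0 of the 8 among them. Rara was at 43.6 CPM (lowest), 62.96 (median) and 65.6 (highest) in responders and at 45.7, 48.5 and 51.6 in non-responders. Of the 6 responders 5 lay above all non-responders, and responder tumour 43 lay below them. The log2 fold change was 0.31 (SE 0.109, unadjusted p = 0.0165, adjusted p = 0.131), and without tumour 43 it was 0.36 (adjusted p = 0.0154), a fit in which 1805 genes passed.

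Nr2f1 did not pass either, at 16.5, 23.7 and 40.7 CPM in responders and 32.1, 40.2 and 42.3 CPM in non-responders, with overlap. Its log2 fold change was -0.48 (SE 0.230, unadjusted p = 0.0625, adjusted p = 0.245). By p it was at rank 3730 of 14604 genes and Rara at rank 1837. Responder tumours 41, 42, 24 and 22 lay between 16.5 and 24.9 CPM, below every non-responder, and responders 43 and 45 lay at 40.7 and 37.7 CPM. The leukocyte markers summed to 1175 to 2031 CPM in responders and 968 to 1566 in non-responders, and the mural markers to 210 to 390 and 307 to 394. The macrophage markers summed to 4220 to 4960 CPM in responders and 3406 to 4009 in non-responders, without overlap, and 0 of 6 passed the test. Of the other immune cell lists, T cell (0.72), neutrophil (0.61) and B cell markers (0.54) had higher median log2 fold changes than macrophage markers (0.34). The lowest medians were those of skeletal muscle (-0.55) and adipocyte markers (-0.51), and 0 markers of any list passed. The part of these cells in the values of Rara and Nr2f1 was not tested. The other 6 genes had log2 fold changes between -0.09 (Nr2f2) and 0.21 (Nrip1) and adjusted p of at least 0.445.

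Levels were compared between genes only per length, as CPM per kb over the union of a gene's exons in GENCODE M21. Rarg had the highest mean in every group, at 22.9 ± 2.44 CPM per kb (SD, n = 10) with PBS, 43.98 ± 5.75 (n = 9) with tretinoin, 21.5 ± 2.32 (n = 10) with ICT and 31.7 ± 3.86 (n = 10) with tretinoin+ICT. Its range overlapped that of the next gene, Ncor1, in the PBS and ICT groups and no other gene's in the groups given tretinoin. Nrip1 was lowest with PBS at 4.18 ± 0.476 CPM per kb and with ICT at 4.03 ± 0.455, and was the 6th of 8 genes with tretinoin at 13.04 ± 1.33. With tretinoin, neighbours from Nr2f2 through Ncor1 to Rxrb overlapped in range, as did Rxra, Nrip1, Nr2f1 and Rara in turn.

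In the PBS tumours Rara stood at 8.76 ± 0.794 CPM per kb, so that the levels of Rara and Rarg, the RAR genes measured, differed without overlap. Rxrb, at 16.9 ± 1.04, stood above Rxra, at 13.5 ± 1.001, also without overlap. Over the longest transcript in place of all exons, Rarg in PBS tumours was again highest, at 33.1 ± 3.52 CPM per kb, and Nrip1 lowest. Nr2f2 moved in that order from 5th to 4th, at 23.8 ± 2.73 CPM per kb, Nr2f1 from 6th to 5th, and Rxra moved from 4th to 6th. With tretinoin Nrip1 stood 5th instead of 6th on that scale.

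**Figure D3:**
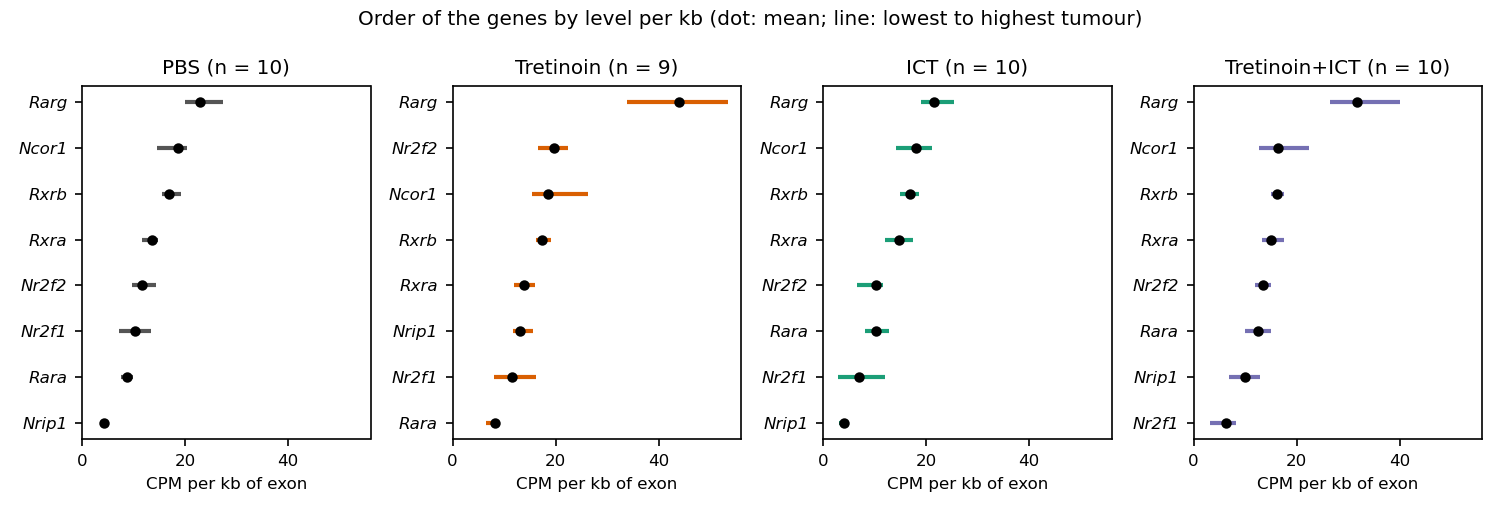
Mean level (dot) and range over tumours (line) of each gene, in CPM per kb of exon (x axis), in order of the mean (y axis) within each treatment. Rarg led in all 4 groups, with 43.98 CPM per kb under tretinoin, and Nrip1 was last at 4.18 with PBS and 6th at 13.04 with tretinoin.

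How the genes varied between tumours given the same treatment was described by correlating log2 CPM over 39 tumours after subtracting each group's mean. Of 28 pairs tested, 5 were positive and 1 negative past an adjusted p of 0.05, by permutation of tumours within groups with 100000 resamples. Nr2f1 and Nr2f2 varied together, with r = 0.63 (permutation p = 8e-05, adjusted p = 0.00168) and rho = 0.56 (permutation p = 0.00022, adjusted p = 0.00224), and r was 0.48 without the 2 tumours farthest from the median of Nr2f1. Within single groups r lay between 0.10 (tretinoin) and 0.86 (ICT).

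Rarg varied with both COUP-TF genes. With Nr2f1 r was 0.57 (permutation p = 0.00018, adjusted p = 0.00168) and rho 0.61 (permutation p = 8e-05), and r was 0.55 without the 2 farthest tumours. With Nr2f2 r was 0.48 (permutation p = 0.0011, adjusted p = 0.00616), rho 0.54 (permutation p = 0.00074) and r without the 2 farthest 0.54. Rara went with Rxra at r = 0.60 (permutation p = 0.00025, adjusted p = 0.00175), rho = 0.59 (permutation p = 0.00024) and r = 0.52 without the 2 farthest, though r was 0.17 within the tretinoin+ICT tumours. The corepressor genes Nrip1 and Ncor1 had r = 0.61 (permutation p = 0.00014, adjusted p = 0.00168), rho = 0.57 (permutation p = 0.00032) and r = 0.65 without the 2 farthest.

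The negative pair was Rxrb and Ncor1, with r = -0.42 (permutation p = 0.00894, adjusted p = 0.0417), rho = -0.41 (permutation p = 0.0145, adjusted p = 0.0675) and r = -0.34 without the 2 farthest tumours. It did not pass once series means were subtracted (r = -0.35, adjusted p = 0.173). Rara and Nr2f1 had r = -0.36 (permutation p = 0.0475, adjusted p = 0.129) over all tumours, and within groups r was 0.73 with PBS and -0.75 with tretinoin+ICT. The difference between those groups was not tested.

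**Figure D4:**
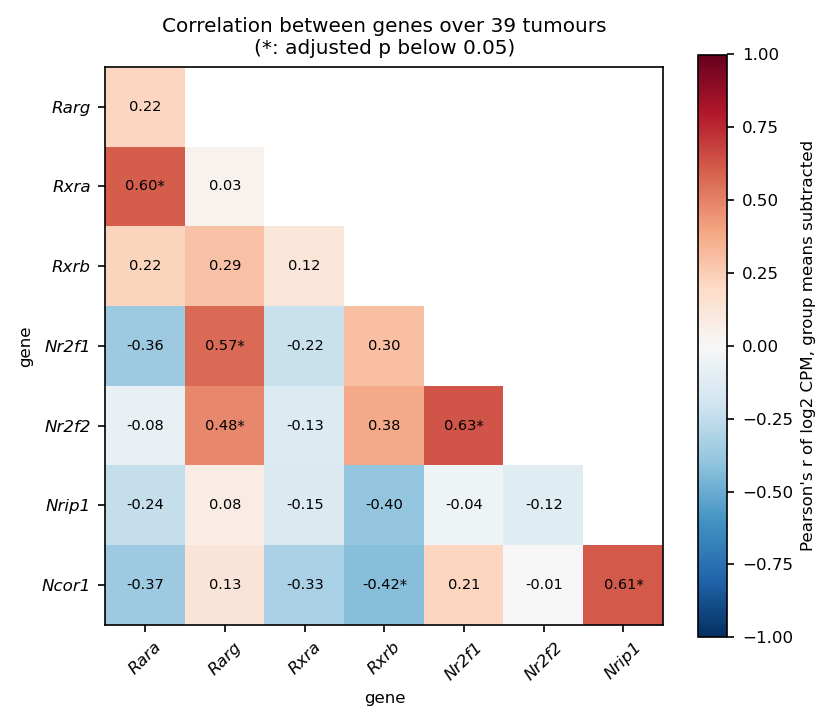
Pearson's r between each pair of genes (both axes are genes) over 39 tumours, on log2 CPM with group means subtracted, from -1 (blue) to 1 (red). Stars mark an adjusted p below 0.05. Nr2f1 and Nr2f2 had the highest r, 0.63, and Rxrb and Ncor1 the lowest, -0.42.

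The genes whose levels followed each receptor most closely were listed by the same centred r over 39 tumours, among 12123 genes with a mean log2 CPM of at least 1, as a description. Rara was followed by Ell (r = 0.86), Bahd1 (0.84) and Zbtb7a (0.83), and Rarg by Hs6st1 (0.84), Tgfb1i1 (0.82) and Gas2l1 (0.82). Rxra was followed by Rgl2 (0.82), Tcn2 (0.79) and Ap1b1 (0.78), and Rxrb by Src (0.77), Sh3glb2 (0.75) and Pygo2 (0.70). Nr2f1 had Smo (0.95), Fgfr2 (0.94) and Ttll5 (0.94), and those following Nr2f2 included Inha (0.80) and Ephb3 (0.76). Nrip1 had Chd9 (0.76), Golgb1 (0.76) and Cep350 (0.75), and Ncor1 had Bptf (0.97), Prrc2c (0.96) and Apc (0.96).

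The corepressor genes stood with long transcripts. Their own longest transcripts are 9.04 kb (Ncor1) and 7.87 kb (Nrip1), against at most 4.905 kb (Rxra) for the other 6 genes. The part of transcript length in the r of 0.61 between Nrip1 and Ncor1 was not tested. The 100 genes most like Ncor1 had a median longest transcript of 8.37 kb and those most like Nrip1 one of 8.54 kb, against 3.19 kb over all 12124 genes. For the other 6 genes that median lay between 2.65 kb (Rxrb) and 3.99 kb (Nr2f1).

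The other genes of the pathway were read from fixed lists. Of the genes of retinoid metabolism and binding, 7 of 18 tested were higher and 2 lower with tretinoin than with PBS, where 11.5% of all genes were higher and 8.95% lower. Cyp26b1, which degrades retinoic acid, rose by 5.19 on the log2 scale (SE 0.134, adjusted p = 1.99e-16), from 8.30 ± 1.94 CPM (SD, n = 10) to 304 ± 46.6 (n = 9), and Dhrs3, which reduces retinal, rose by 2.66 (adjusted p = 8.59e-17), from 45.1 ± 5.07 to 285 ± 28.6 CPM. Crabp2, which carries retinoic acid to the nucleus, rose by 0.66 (adjusted p = 1.14e-06). Lrat, which esterifies retinol, was below the level at which genes were named (a mean log2 CPM of 0) and is given after its values were seen, with a rise of 4.92 (SE 0.433, adjusted p = 9.71e-08) from 0.0768 ± 0.0971 CPM (SD, n = 10) to 2.40 ± 0.936 (n = 9). In tretinoin+ICT over ICT 5 of 17 were higher and 0 lower, against 1.57% and 0.422% of all genes, with Cyp26b1 at 2.84, Dhrs3 at 1.48 and Tgm2, a transglutaminase that retinoic acid is known to induce, at 1.44.

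In this list the interaction passed the test for 2 of 18 genes, against 0.307% of all genes in either direction. Both were lower, Dhrs3 (-1.19, SE 0.131, adjusted p = 3.37e-07) and Cyp26b1 (-2.36, SE 0.292, adjusted p = 5.87e-06). In ICT over PBS 6 of 17 rose and 2 fell, against 14.1% and 7.15% of all genes, and among those that rose were Cyp26b1, with a log2 fold change of 1.09 (adjusted p = 0.00527), Tgm2 at 0.86 and Rarres2 at 1.12. ICT added to tretinoin gave 3 of 18 higher and 5 lower, against 12.3% and 9.01% of all genes, and Stra6, the cell surface receptor for retinol-binding protein, fell by 1.196 (adjusted p = 7.48e-05).

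Among the other receptors that pair with RXR, 3 of 8 tested were higher with tretinoin and 0 lower, against the 11.5% and 8.95% of all genes, and these were Vdr, Nr1h2 and Thrb. Vdr, the vitamin D receptor, rose by 1.39 with tretinoin (SE 0.213, adjusted p = 1.37e-04) from 8.88 ± 1.60 CPM (n = 10) to 23.3 ± 11.9 (n = 9), by 1.40 with ICT and by 2.67 with both over PBS. Nr1h2, the liver X receptor LXRβ, rose by 0.39 with tretinoin and by 0.24 with ICT. Of other orphan receptors, 0 of 6 were higher and 1, Nr1d2 (a clock repressor that recruits NCoR), was lower with tretinoin, at -0.28.

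Among the coactivators, 4 of 17 were higher and 2 lower with tretinoin, against 11.5% and 8.95% of all genes, a share of lower genes near that over all genes. Ncoa3, a histone acetyltransferase that binds liganded receptors, rose by 0.82 (SE 0.0891, adjusted p = 1.81e-06) and Trim24, which binds liganded RAR, by 0.43 (SE 0.0555, adjusted p = 1.62e-05). Ppargc1a, a coactivator of mitochondrial genes, fell by 0.91 (adjusted p = 1.82e-04). The interaction for Trim24 was -0.46 (SE 0.0883, adjusted p = 0.00525), the only gene of the 17 to pass, against 0.307% of all genes in either direction. In the corepressor complex around NCoR, 0 of 15 were higher and 2 lower with tretinoin, Hdac2 (-0.18) and Ctbp2 (-0.14), again near the 8.95% of all genes. With tretinoin+ICT over PBS 8 of 15 were lower and 1 higher, against 24.5% and 25.7% of all genes, and the lower ones included Hdac2 (-0.35), Hdac3 (-0.20) and Hdac1 (-0.09). In the same comparison 4 of 5 proliferation markers were lower, their sum being 1755 to 1988 CPM with PBS and 1250 to 1859 with tretinoin+ICT, and its part in these values was not tested.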

How the data were processed

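RNA of 39 tumours was sequenced by the authors as single-end reads on a NovaSeq, aligned with HISAT2 2.0.4 to a genome they name mm11 and counted on genes with SummariseOverlaps. The authors deposited raw counts per gene, which are whole numbers without normalization. The handling of strand and of reads with several alignments is not given in the sources used here. Groups were taken from the labels, with replicate numbers that only name tumours. The paper gives more than one tretinoin dose, and the labelled dose was used.

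Each comparison of 2 groups was fitted on those groups alone with edgeR 4.0.16 (TMM, filterByExpr, robust quasi-likelihood test, R 4.3.3) over all genes, with Benjamini-Hochberg adjustment and calls at 0.05. The interaction used all 39 tumours. Standard errors were derived from F. CPM values use TMM library sizes, and log2 CPM a prior count of 2. The fits were tested on simulated data. Means, correlations and permutation tests used Python 3.11.15, numpy 2.4.6 and scipy 1.17.1. The edgeR p-values judge a difference between groups against the spread between tumours of a group, which includes counting error. The permutation p-values judge r against tumours shuffled within groups.

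Of each pathway list, at most 3 genes past the test with the smallest adjusted p were named per comparison, and for each receptor the 3 genes with the highest r. One gene that this rule would name is not reported here. The transcript lengths of similar genes, the single core sites and the values of overlapping transcripts fall outside that rule and were chosen after values were seen. The genes and lists were chosen with earlier results of these data known. Identifiers were matched to GENCODE M21 without their version, since 4 of 8 matched with it, and promoters came from RefSeq on GRCm38.p6. Genes of the lists without a matching row were not analysed here, apart from the search of promoters. Alternatives were DESeq2 1.42.0, DESeq2's size factors in edgeR, no filter on low counts, at least 10 counts in every tumour, 1 fit of all tumours, a log2 fold change minimum of 1, pairs of name series, series as a block for responders, and leaving out each tumour. Leaving out PBS, tretinoin or ICT tumours with high leukocyte markers (14, 33, 63 and 82) was chosen after seeing the data. No tretinoin+ICT tumour was left out for that reason, although tumour 41 had a leukocyte sum of 2031 CPM.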

Additional observations from a re-analysis of the deposited data

Results flagged for a closer look

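Single tumours stood apart from their group in 3 of 48 groups examined by Dixon's ratio of the gap to the range, where chance gives about 1 in 20, or 2.4 groups. Nr2f2 in ICT tumour 63 was at 57.1 CPM, with the nearest of the other 9 ICT tumours at 80.0 CPM. The same tumour was the lowest ICT tumour in Nr2f1 and Rarg and had the highest leukocyte marker sum, and these relations were not tested.

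Ncor1 in PBS tumour 12 was at 185 CPM, and the nearest PBS tumour was at 219.7 CPM. This tumour was also the highest PBS tumour in Rara, Rarg, Rxra, Rxrb, Nr2f1 and Nr2f2 and the lowest in Nrip1. Rxra in non-responder tumour 44 was at 87.7 CPM, and the nearest of the other 3 non-responders was at 76.6 CPM.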

How the results depend on the processing

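Of 1144 alternative values of the 8 genes' fold changes, 1109 kept their direction, where called, and their side of the threshold, 23 were no longer past it, 12 passed newly and 0 reversed. Nrip1 passed under every alternative run for tretinoin over PBS and for tretinoin+ICT over ICT. With a log2 fold change minimum of 1, the genes called were 1 in tretinoin over PBS, 0 in ICT over PBS, 1 in tretinoin+ICT over ICT, 0 in tretinoin+ICT over tretinoin and 1 in tretinoin+ICT over PBS. In ICT over PBS the count was 2 with DESeq2, with its size factors in edgeR and with at least 10 counts in every tumour, and 0 with no filter and in name series 6 against 1, 6 against 5 and 8 against 1. Leaving out 1 tumour gave 0 to 2 there, with 2 (Nr2f1 and Rara) without tumours 15, 61, 64 or 65 and 0 without tumour 82. Without tumour 12 Rara passed (adjusted p = 0.0433) in place of Nr2f1. In tretinoin+ICT over ICT the count was 1 in series 2 against 6 and 1 in 2 against 8, where 14 and 11 of all genes passed. In tretinoin+ICT over tretinoin it was 3 (2 against 3), 1 (4 against 3) and 2 (4 against 7), where 92, 47 and 667 of all genes passed. Between responders and non-responders it was 0 to 1 when 1 tumour was left out, with 1 (Rara) without tumour 43, where 1805 of all genes passed. Leaving out ICT tumours 63 and 82, and no tretinoin+ICT tumour, from tretinoin+ICT over ICT let Rara pass (0.37, adjusted p = 0.0214). The counts of all genes in the same fits are given below where they moved more than 1.5-fold from the main fit, or from 0.

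Genes called over the whole table moved more. With the fold change minimum they were 232 in tretinoin over PBS (2929 without it), 332 in ICT over PBS (3007), 56 in tretinoin+ICT over ICT (283), 300 in tretinoin+ICT over tretinoin (3074) and 845 in tretinoin+ICT over PBS (7174). In tretinoin+ICT over ICT they were 587 with DESeq2, 741 in the fit of all tumours, 883 without ICT tumour 63 and 2420 without ICT tumours 63 and 82. Pairs of series gave 1216 (3 against 1), 1854 (3 against 5), 265 (7 against 1) and 548 (7 against 5) for tretinoin over PBS, 14 (6 against 1), 6 (6 against 5) and 340 (8 against 1) for ICT over PBS, 14, 11, 20 and 21 for tretinoin+ICT over ICT, and 92, 1096, 47 and 667 for tretinoin+ICT over tretinoin. These fits hold fewer tumours. Between responders and non-responders the count was 1401 with DESeq2, 5 with no filter, 1 without tumour 23 and 1805 without tumour 43. The interaction gave 29 with no filter and 84 with DESeq2. For the other changes the cause was not tested. No paired analysis was possible because nothing in the labels ties a tumour of one treatment to a tumour of another, and the replicate numbers, given in accession order, only name tumours. Depth, at 14033046 counts or more, left all 8 genes testable.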
